A study of Drosophila melanogaster
Mus musculus with 4 samples.

Results

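Sites of open chromatin with peaks only in wild type, that is a peak in each wild-type library and none in the libraries from Hdac3-deleted cells, were described across the mouse genome. The assay was ATAC-seq, whose transposase Tn5 cuts accessible DNA and leaves sequencing adapters there, applied to B220+CD43+ cells sorted from bone marrow of mice on the C57BL/6 strain aged 8 weeks. The design had 2 libraries from mice with Hdac3 deleted and 2 libraries from Hdac3+/+ wild-type mice, each from 50000 sorted cells with 5% Drosophila S2 cells, a fly cell line, added before the transposase step. The labels give neither the means of the deletion nor the sex of the mice and do not say whether replicates came from separate animals, so p-values measure only the spread between these libraries, which may be technical. The authors' table held 69709 sites of build mm10, and 6165 of them (8.84%) met the rule of at least 1 bp of overlap with a peak in each wild-type list and none in either Hdac3-deleted list. Another 3034 sites (4.35%) had the opposite pattern, and 45614 had a peak in all 4 libraries. The peak calls that chose the sites and the read levels described below come from the same libraries, so the difference in level between genotypes at these sites is a description, and calls from a fit across all sites are printed beside their background without being read as a test of the class.

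Hdac3 is a histone deacetylase and the catalytic subunit of the NCoR and SMRT corepressor complexes, which nuclear receptors and other DNA-binding factors bring to enhancers and promoters. B220+CD43+ marrow cells are early B cell precursors, in which immunoglobulin genes are cut and joined by V(D)J recombination. An ATAC-seq site marks DNA that is free enough of nucleosomes to be cut, usually a promoter, an enhancer or a site bound by an architectural factor. In a bulk library, fewer cells with an open site and less opening per cell cannot be told apart. No mouse gene annotation or genome sequence was used here, so sites are given by position, without gene names or sequences, and neither the sorted cell type nor the deletion was checked against a marker gene.

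The sites were weakly to moderately open in wild type. Their median level was 43.0 and 37.2 normalized reads per site in Hdac3-deleted replicates 1 and 2, against 66.4 and 66.9 in wild-type replicates 1 and 2. Before scaling, these medians rested on 43 and 28 reads in the Hdac3-deleted libraries and on 100 and 59 reads in the wild-type libraries. The Hdac3-deleted level was a median of 61.2% of the wild-type level of the same site, so a site without a called peak usually still held reads. The class took 1.45% and 1.33% of all reads in sites in Hdac3-deleted replicates 1 and 2, and 2.31% and 2.34% in wild-type replicates 1 and 2. Sites with peaks in all 4 libraries had medians of 223 and 221 normalized reads in the Hdac3-deleted libraries and 216 and 210 in the wild-type libraries.

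**Figure D1:**
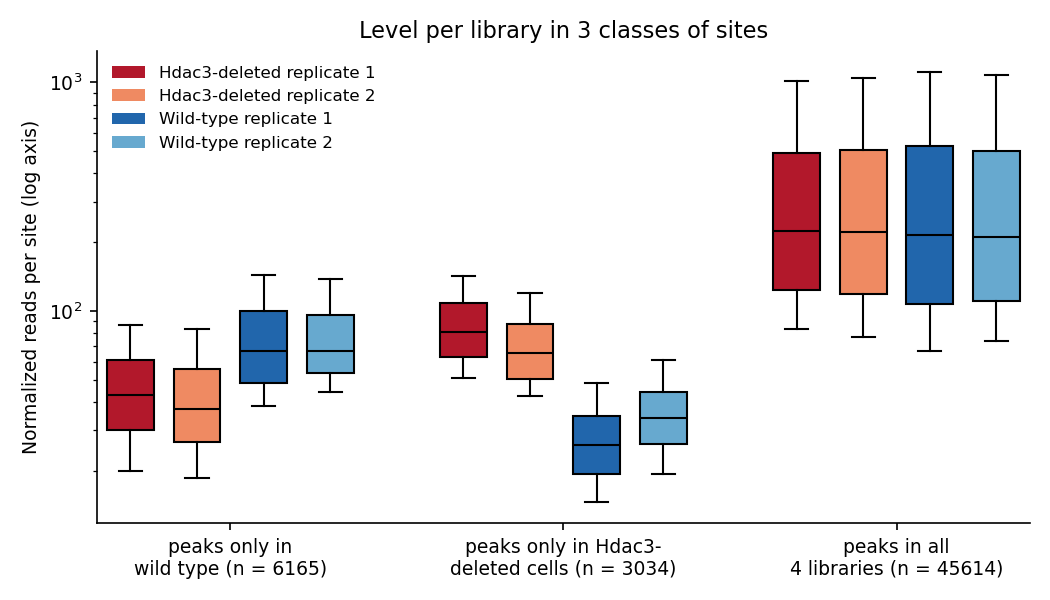
Normalized reads per site (log axis) in each library, for 3 classes of sites defined by their peaks; boxes show the median and quartiles over sites and whiskers the 10th and 90th percentiles. At wild-type-only sites the boxes of the libraries overlap, with medians of 43.0 and 37.2 in Hdac3-deleted and 66.4 and 66.9 in wild-type libraries, and both classes of one-sided sites lie far below sites with peaks everywhere.

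Both Hdac3-deleted libraries lay below both wild-type libraries at 4801 of the 6165 sites (77.9%), while over all sites the share was 30.5%. Both lay above at 42 sites (0.681%, against 30.1% of all sites), and the ranges of the genotypes overlapped at the rest. Hdac3-deleted replicate 2 was the lowest library at 3430 sites and Hdac3-deleted replicate 1 at 2433 sites. Wild-type replicate 2 was the highest at 3116 sites and wild-type replicate 1 at 2612. The median log2 difference of Hdac3 deleted minus wild type, taken on log2(normalized reads + 1), was -0.72 over the class and -0.01 over all sites. Replicates of the same genotype differed at the median member by 0.37 (Hdac3-deleted pair) and 0.25 (wild-type pair) on the same scale. Single sites ranged from -6.22 to 0.75.

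A fit across all sites with limma called 1657 of the wild-type-only sites lower in Hdac3-deleted cells (26.9%, Benjamini-Hochberg adjusted p under 0.05), where 8.9% of all sites were called lower, and 0 higher, where 11.7% were. At an unadjusted p under 0.05 limma gave 2806 members as lower and 1 as higher, and the share over all sites at that cut is not given. After adjustment edgeR and DESeq2 called 0 members higher, where they called 8544 and 6437 sites higher over the whole table. They called 1717 and 1149 members lower, of 6074 and 4651 sites called lower in all. Since the same libraries chose these sites, nothing is read from these counts. The limma count of members called lower fell with any library left out, and most without a wild-type library. The median log2 difference of the class was -0.74 without wild-type replicate 1 and -0.69 without wild-type replicate 2. It was -0.78 without Hdac3-deleted replicate 1 and -0.65 without Hdac3-deleted replicate 2. In the authors' deposited table, 2832 of the sites had an FDR under 0.05 with a lower value in Hdac3-deleted cells (45.9%, against 9.8% of all sites) and 2 with a higher value (15.3% of all sites). The other 4508 wild-type-only sites were not called lower by limma.

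Most members were lower by a small amount. In 3959 sites (64.2%) the Hdac3-deleted mean was lower by less than 2-fold, and 237 sites (3.84%) were level or higher in Hdac3-deleted cells. At these 237 sites the median level was 64.9 and 55.8 reads in the Hdac3-deleted libraries and 50.5 and 56.7 in the wild-type libraries. The extreme was chr2:135439582-135439759, with 79.9 and 54.5 reads in Hdac3-deleted libraries against 37.2 and 40.8 in wild-type libraries, a site that has a peak in the genotype with fewer normalized reads. Larger differences were found at 1969 sites (lower by over 2-fold), of which 342 were lower by over 4-fold and 62 by over 8-fold. Wild-type-only sites made up 63.5% of all 3103 sites that were lower by over 2-fold, 89.3% of the 383 lower by over 4-fold and 93.9% of the 66 lower by over 8-fold. Of the 383 sites, 12 had peaks in all 4 libraries. The rule looks for a lost peak, so these shares are a description.

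The 342 sites that were lower by over 4-fold lay on 20 chromosomes. They held a median of 16.5 and 14.6 reads in the Hdac3-deleted libraries, against 102 and 83.9 in the wild-type libraries. Chromosome 9 had 34 of them among 333 wild-type-only sites (10.21%) and chromosome 6 had 31 among 402 (7.71%). Chromosome 8 had 8 among 277 (2.89%) and chromosome X had 3 among 115 (2.61%). Of the 342 sites, 93 lay within 50 kb of another of them and 191 (55.8%) lay 10 kb or more from the nearest Hdac3-deleted peak.

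Individual sites were named by the size of the difference among the 892 members at or above the median wild-type level of all sites, 122 reads, with at least 100 kb between them. The largest was chr15:79895726-79896025, with 0.999 and 1.33 normalized reads in Hdac3-deleted libraries, against 159 and 160 in wild-type libraries. That is 1 read in each Hdac3-deleted library, and 240 and 141 reads in wild-type replicates 1 and 2. The Hdac3-deleted level was 0.00715 of the wild-type level (95% exact interval for counting error 0.000862 to 0.0260). Its 16 neighbours within 100 kb included 3 other wild-type-only sites, and 5 of the 16 were called lower and 0 higher. Over all sites the shares were 8.9% and 11.7%. The site had low summits in wild type, 2.41 and 2.79 times the local background in the authors' lists, against class medians of 4.85 and 4.89.

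The widest of the named sites had few neighbours or none. At chr2:161511279-161512513, at 1235 bp the widest of all wild-type-only sites, Hdac3-deleted libraries held 37.0 and 22.6 reads and wild-type libraries 652 and 597; the table has 0 other sites within 100 kb. At chr7:116917902-116918956, which is 1055 bp wide, they held 19.0 and 29.2 reads in Hdac3-deleted libraries against 424 and 420 in wild type, and both sites within 100 kb were wild-type-only and called lower. The other named site of that region, chr7:116739321-116739766, held 16.0 and 5.31 reads in Hdac3-deleted libraries against 158 and 177 in wild type. Of its 6 neighbours 4 were wild-type-only themselves and 5 were called lower, where 8.9% of all sites were. The genotypes did not overlap at any of these 3 sites, and the wild-type replicates were close to each other.

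The differences on chromosomes 1, 4 and 9 were of the same order. At chr4:115281202-115281585 the Hdac3-deleted libraries held 5.00 and 5.31 reads and the wild-type libraries 149 and 109. At chr1:146805908-146806363 they held 7.99 and 3.99 reads in Hdac3-deleted libraries against 203 and 78.3 in wild type, so the wild-type replicates differed more than elsewhere in the list. At chr9:87049421-87049836 they held 19.0 and 1.33 reads in Hdac3-deleted libraries against 171 and 132 in wild type, and here the Hdac3-deleted replicates stood apart from each other: the log2 difference of -4.47 was -6.02 without Hdac3-deleted replicate 1 and -2.92 without replicate 2. The groups did not overlap at these sites on chromosomes 1, 4 and 9.

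At chr2:51689593-51689905 the libraries held 15.0 and 3.99 reads in Hdac3-deleted cells against 139 and 118 in wild type. Within 100 kb 8 of 8 neighbours were called lower, but 4 of them were wild-type-only themselves and so chosen for a lost peak. The 2 sites on chromosome 18, the chromosome that carries Hdac3, had no neighbour within 100 kb that was called lower. At chr18:33720207-33720599 the Hdac3-deleted libraries held 7.99 and 10.6 reads and the wild-type libraries 180 and 212, and of 4 neighbours 2 were called higher and 0 lower. At chr18:39185595-39186055 they held 51.0 and 18.6 reads in Hdac3-deleted libraries against 447 and 431 in wild type, and of 9 neighbours, 6 of them with peaks in all 4 libraries, 1 was called higher and 0 lower. The named sites thus included sites whose neighbours were all called lower and sites with 0 neighbours called lower. Over all sites 8.9% were called lower and 11.7% higher.

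**Figure D2:**
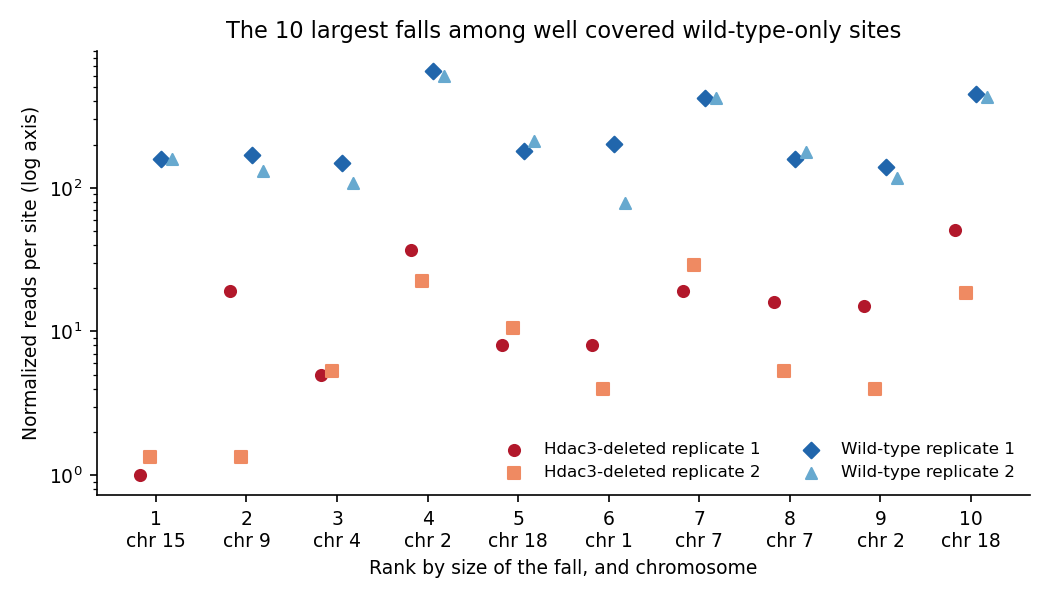
Normalized reads per site (log axis) in each library at the 10 named sites, ordered by the size of the difference, with the chromosome of each below its rank. At every site both Hdac3-deleted points lie below both wild-type points, from 0.999 and 1.33 in Hdac3-deleted libraries against 159 and 160 reads in wild type at the first site to 51.0 and 18.6 in Hdac3-deleted libraries against 447 and 431 in wild type at the last.

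Few sites were close to empty in Hdac3-deleted cells. Hdac3-deleted replicate 1 had at most 3 reads at 11 of the wild-type-only sites and replicate 2 at 32, and both had at most 3 at 5 sites. Besides the site on chromosome 15 these were chr18:54422132-54422375, chr12:111024455-111024611, chr10:71377571-71377739 and chr6:70698229-70698415. They held 2 to 6 reads in the Hdac3-deleted libraries together and 87 to 97 reads in the wild-type libraries together, with ratios between 0.0284 and 0.0928. These 4 sites were chosen after their values were seen.

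Of the 5 members with the highest wild-type levels, 2 were among the 10 largest differences (chr2:161511279-161512513 and chr18:39185595-39186055), and the other 3 differed less. The member with the highest wild-type level, chr11:3149818-3150244, held 1268 and 1137 reads in Hdac3-deleted libraries against 1304 and 1158 in wild-type libraries. The ranges of the genotypes overlapped, and the wild-type summits were only 1.81 and 1.83 times the local background, the lowest of all members. Within 100 kb of it, 13 of 19 sites were called higher and 2 lower, where 11.7% and 8.9% of all sites were. At chr4:95050025-95050193 the Hdac3-deleted libraries held 319 and 316 reads and the wild-type libraries 449 and 575, with summits of 2.24 and 2.37 times background. At chr11:114875345-114875944 the Hdac3-deleted libraries held 127 and 177 reads and the wild-type libraries 600 and 437. At these last sites both Hdac3-deleted libraries lay below both wild-type libraries.

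The sharpest wild-type summits, by the authors' fold enrichment over local background in both lists, were at sites with large differences. The first was chr18:39185595-39186055, at 12.8 and 13.3 times background. Next came chr3:138041885-138042241, which held 30.0 and 17.3 reads in Hdac3-deleted libraries against 216 and 206 in wild type, and chr6:69432238-69432725, which held 15.0 and 39.9 in Hdac3-deleted libraries against 162 and 171 in wild type. A second site on chromosome 3, chr3:138016827-138017224, lies within 100 kb of the first and held 27.97 and 35.9 reads in Hdac3-deleted libraries against 321 and 306 in wild type, while 15 of its 19 neighbours had peaks in all 4 libraries. At chr13:16755388-16755908 the libraries held 49.95 and 31.9 reads in Hdac3-deleted libraries against 196 and 145 in wild type. In all 5 the groups were separate.

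Across the class, sharper summits went with larger differences. In 4 groups of about equal size by enrichment (the lower of both lists), the group with the weakest summits (1.81 to 3.79 times background) had a median log2 difference of -0.51, with medians of 66.2 reads in Hdac3-deleted cells and 96.0 in wild type. The middle groups had median differences of -0.65 and -0.74. In the group with the sharpest summits (5.30 to 12.8), it was -1.05, with 34.9 reads in Hdac3-deleted cells and 69.3 in wild type. Over the 6165 sites Spearman's rho between enrichment and log2 difference was -0.35, a description over sites that share the same libraries. Enrichment and the wild-type part of the difference came from the same wild-type reads, at sites chosen for lacking a Hdac3-deleted peak. A relation in this direction is favoured in advance, so nothing further is read from it. Most summits were low for their lists: 80.1% and 94.1% of the sites ranked below the median peak of wild-type replicates 1 and 2 by q, and 2 and 1 sites ranked in the top 10% of peaks.

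Wild-type-only sites were narrow, with a median of 224 bp and a 10th to 90th percentile range of 172 to 391 bp. Sites with peaks only in Hdac3-deleted cells had nearly the same width (median 222 bp), and sites with peaks in all 4 libraries were wider (median 487 bp). Of the 6165 sites, 4734 (76.8%) were under 300 bp and 4 were 1 kb or more. Among the 1982 sites under 200 bp the median log2 difference was -0.53 and 355 were lower by over 2-fold. Among the 228 sites of 500 bp or more it was -1.07 and 123 were lower by over 2-fold. Wider members held more reads, 60.0 in Hdac3-deleted cells and 134 in wild type at the median of the widest group, against 38.1 in Hdac3-deleted cells and 53.5 in wild type in the narrowest. The width of a member rests on its wild-type peaks, since it overlaps no Hdac3-deleted peak. Larger differences at wider members are therefore favoured in advance, and nothing further is read from them.

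Membership hangs on a q threshold of 0.001 in each list. The members with the weakest wild-type peak were chr9:32596532-32596699, chr3:28842173-28842562 and chr3:138138190-138138440, at −log10 q of 3.22, 3.41 and 3.80 in wild-type replicate 2. The first held 43.0 and 31.9 reads in Hdac3-deleted libraries against 49.2 and 55.6 in wild type, the second 58.9 and 33.2 in Hdac3-deleted libraries against 69.1 and 63.5 in wild type, and the third 24.98 and 21.3 in Hdac3-deleted libraries against 40.5 and 47.6 in wild type. Just outside were chr9:63742382-63742763, chr2:59882886-59883236 and chr4:109406918-109407306, each kept out by 1 Hdac3-deleted peak with −log10 q of 3.45, 3.51 and 3.57. Of these, chr2:59882886-59883236 held 99.9 and 94.3 reads in Hdac3-deleted libraries against 86.3 and 110 in wild type, and chr4:109406918-109407306 held 92.9 and 86.4 in Hdac3-deleted libraries against 119.5 and 120.3 in wild type. The site on chromosome 9 held 135 and 159 in Hdac3-deleted libraries against 266 and 194 in wild type. The sites just outside held more reads than those just inside in all 4 libraries.

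The number of wild-type-only sites was set beside the length and depth of the lists. The lists held 62140 and 66507 peaks in Hdac3-deleted replicates 1 and 2 and 77919 and 65823 peaks in wild-type replicates 1 and 2, made from 57880292 and 36656102 tags against 70540115 and 52188549. With the 62140 strongest peaks of each list, 4544 sites were wild-type-only and 4074 were Hdac3-deleted-only, where the full lists gave 6165 and 3034. The sets shared 4085 sites, 89.9% of the shorter and 66.3% of the longer one. Between single libraries, Hdac3-deleted replicate 1 (57880292 tags) alone had a peak at 6884 sites and wild-type replicate 2 (52188549 tags) alone at 11242. Between Hdac3-deleted replicate 2 and wild-type replicate 2 the numbers were close, 8007 and 8451. Against wild-type replicate 1, whose list was the longest, Hdac3-deleted replicate 1 left 13037 sites with a peak in wild type alone. Hdac3-deleted replicate 2, with 36656102 tags, left 9345. Reads in sites were 21177343 and 16132402 in Hdac3-deleted replicates 1 and 2, and 32988999 and 19017456 in wild-type replicates 1 and 2. The effects of depth and of the share of tags that fell in sites were not tested.

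The opposite class had a wider gap between the genotypes. Sites with peaks only in Hdac3-deleted cells held a median of 80.9 and 65.1 reads in the Hdac3-deleted libraries and 25.9 and 34.0 in the wild-type libraries. Their Hdac3-deleted level was a median of 2.47 times the wild-type level, whereas wild-type-only sites had a wild-type level of 1.63 times the Hdac3-deleted level. The median log2 difference was 1.29 there. Fold enrichments at the summits were similar, with medians of 5.09 and 5.82 in the Hdac3-deleted lists for that class and 4.85 and 4.89 in the wild-type lists for wild-type-only sites. No test between the classes was made, since each was chosen by the direction of its difference. The gaps are for the full lists, which differed in length, and were not computed for lists of the same length.

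Wild-type-only sites were spread over all chromosomes. Their share of the sites ranged from 7.67% on chromosome X (115 of 1500) to 9.77% on chromosome 6 (402 of 4115) outside chromosome Y, around 8.84% for the genome. Chromosome 18 had 204 of 2150 (9.49%). Chromosome Y had 2 of 12 sites, chrY:90738752-90739063 and chrY:90807636-90807861. The second held 153 and 90.3 reads in Hdac3-deleted libraries against 415 and 363 in wild type. The sexes of the mice are not labelled, so genotype and sex cannot be told apart at the chromosome Y sites.

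In windows of 1 Mb with at least 8 sites, 1 of 1849 windows stood apart. Of the 25 sites between 69 and 70 Mb of chromosome 6, 22 (88.0%) were wild-type-only and 0 had peaks only in Hdac3-deleted cells. The next highest share was 45.5% (5 of 11 sites at 61 to 62 Mb of chromosome 1), the median window had 8.20%, and 231 windows had 0. The peak lists held 2 peaks of each Hdac3-deleted library in that window, against 42 and 25 peaks of wild-type replicates 1 and 2. Textbook maps place the immunoglobulin kappa light chain locus, whose variable gene segments are spread over megabases, on chromosome 6, but whether these sites lie in it was not determined here.

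The 22 sites spanned 805 kb, from 69010541 to 69815302, at a median width of 328 bp. Their levels ran from 3.996 to 53.0 (median 25.5) and from 2.66 to 47.8 (median 22.6) reads in Hdac3-deleted replicates 1 and 2. In wild-type replicates 1 and 2 they ran from 33.2 to 177 (median 85.0) and from 45.4 to 171 (median 76.6). Both Hdac3-deleted libraries lay below both wild-type libraries at 22 of 22 sites, where the share was 77.9% over the class and 30.5% over all sites, and the Hdac3-deleted level was a median of 29.6% of the wild-type level. The median distance from these sites to the nearest Hdac3-deleted peak was 196 kb, against 3844 bp for the whole class, and the longest was 441 kb.

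The highest wild-type levels of the stretch were at chr6:69432238-69432725, chr6:69662468-69662836 and chr6:69681217-69681698, to which the wild-type lists gave summits of 8.68 to 11.3 times background. The second held 26.0 and 25.2 reads in Hdac3-deleted libraries against 143 and 157 in wild type, and the third 49.95 and 47.8 in Hdac3-deleted libraries against 177 and 151 in wild type. The largest difference was at chr6:69649448-69649624, with 3.996 and 2.66 reads in Hdac3-deleted libraries against 33.2 and 45.4 in wild type. The smallest among the 22 was at chr6:69016358-69016814, with 53.0 and 39.9 in Hdac3-deleted libraries against 87.0 and 79.4 in wild type. The next site along, chr6:69016982-69017297, held 19.0 and 7.97 in Hdac3-deleted libraries against 79.7 and 72.6 in wild type. The 3 sites of the window that were not wild-type-only lay at 69063569, 69959088 and 69970354, with 69959088 and 69970354 beyond the end of the stretch. The only one with peaks in all 4 libraries, chr6:69959088-69959363, held 51.0 and 62.4 reads in Hdac3-deleted libraries against 73.1 and 59.0 in wild type, and the genotypes overlapped. With the same number of peaks from each list 19 of the 25 sites were wild-type-only.

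**Figure D3:**
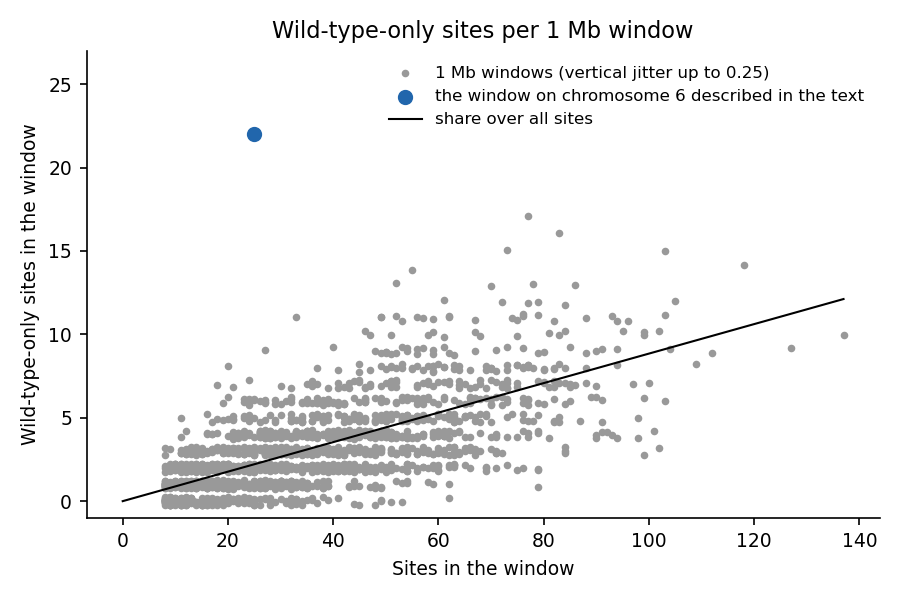
Number of wild-type-only sites against the number of all sites in 1849 windows of 1 Mb (vertical jitter only to part the points); the line is the share over all sites, 8.84%. The chromosome 6 window described here, with 22 wild-type-only sites of 25, lies far above the other windows.

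**Figure D4:**
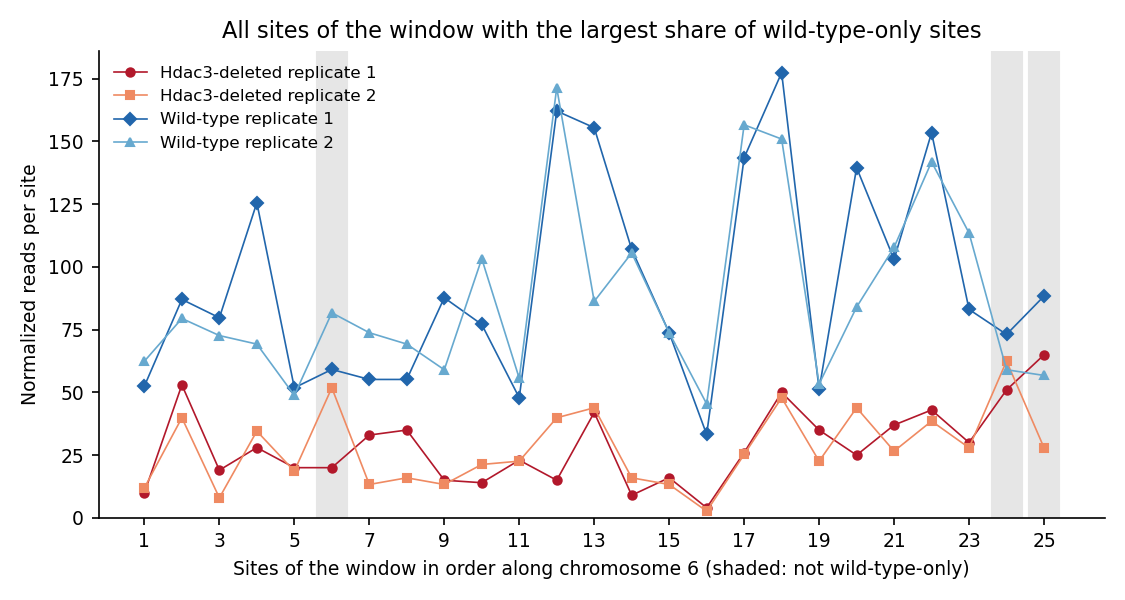
Normalized reads in each library at all 25 sites of that window in order along the chromosome, with the 3 sites that are not wild-type-only shaded. Both Hdac3-deleted libraries stay at or under 53.0 reads at the 22 wild-type-only sites and below both wild-type libraries at each of them.

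The windows around it held fewer. At 68 to 69 Mb of chromosome 6, 13 of 52 sites (25%) were wild-type-only, at 70 to 71 Mb 11 of 67 (16.4%), at 67 to 68 Mb 4 of 54 and at 71 to 72 Mb 2 of 44. From 110 Mb of chromosome 12 to its end, 59 of 514 sites (11.5%) were wild-type-only and 23 were Hdac3-deleted-only. Textbook maps place the immunoglobulin heavy chain locus within that span, which is longer than the 1 Mb windows. The share in the locus itself was not computed. By number, the windows next after that on chromosome 6 were at 125 to 126 Mb of chromosome 5 (17 of 77 sites), at 114 to 115 Mb of chromosome 11 (16 of 83), at 125 to 126 Mb of chromosome 8 (15 of 73) and at 166 to 167 Mb of chromosome 2 (15 of 103). Both Hdac3-deleted libraries lay below both wild-type libraries at 14 of 17, 15 of 16, 15 of 15 and 11 of 15 of these members, where the share was 77.9% over the class and 30.5% over all sites. The median log2 differences of the members were -0.77, -1.06, -1.20 and -0.53 in the same windows.

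Elsewhere the sites were mostly scattered. Another wild-type-only site lay within 1 kb of 330 of them, within 10 kb of 1032 (16.7%) and within 50 kb of 2767 (44.9%). Joined over gaps under 50 kb they formed 4515 groups, of which 3398 held a single site and 39 held 5 or more, with 233 sites in all. Without Hdac3-deleted replicate 2, by the rule on the libraries left, the share within 10 kb of another was 25.7%.

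The run with the most members, 11 wild-type-only sites among 22 sites, lay at chr11:114119730-114249521. Its members held a median of 26.98 and 34.5 reads in Hdac3-deleted libraries against 128 and 151 in wild type. The 11 sites between them held 151 and 116 in Hdac3-deleted libraries against 155 and 138 in wild type. In the run of 10 among 17 sites at chr5:146567190-146679135 the members held 27.5 and 9.96 reads in Hdac3-deleted libraries against 76.7 and 86.8 in wild type, and the other 7 sites 256 and 134 in Hdac3-deleted libraries against 410 and 376 in wild type. In the run of 9 among 29 sites at chr1:128514031-128692575 the members held 42.0 and 37.2 reads in Hdac3-deleted libraries against 119 and 94.2 in wild type, and the other 20 sites 174 and 198 in Hdac3-deleted libraries against 215 and 214 in wild type. In each of these 3 runs the wild-type-only sites had larger median log2 differences (-1.20, -2.68 and -1.35) than the sites between them (-0.22, -0.36 and -0.14). The order was the other way in the run of 8 among 14 sites at chr4:137676087-137784226, chosen after its values were seen, with medians of -0.60 for the members and -0.82 for the other sites. Members were chosen for lacking a Hdac3-deleted peak, so larger differences at members than at the other sites are favoured in advance.

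About 30.6% of the wild-type-only sites (1885) lay within 1 kb of a peak of an Hdac3-deleted library. At the Hdac3-deleted-only sites 16.1% lay within 1 kb of a wild-type peak. The 1885 sites had a median log2 difference of -0.57, with 57.2 reads in Hdac3-deleted cells and 85.9 in wild type, and low summits (median 3.72 times background). The 1832 sites at 10 kb or more had -0.89, with 32.3 reads in Hdac3-deleted cells and 57.1 in wild type, and the 184 sites at 100 kb or more had -0.997, with 31.0 in Hdac3-deleted cells and 58.5 in wild type. Sites far from any Hdac3-deleted peak thus showed larger differences and sharper summits (5.09 and 5.14 times background) than sites beside one. The distance was measured to Hdac3-deleted peaks, whose absence chose the class, and the levels and summits come from the same libraries. A relation in this direction may be favoured in advance, so nothing further is read from it.

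Sites that kept a peak in all 4 libraries were then ordered by their distance to the nearest wild-type-only site. The rule did not choose them by a lost peak, but it chose, from the same libraries, the sites that distance was measured to. The 1668 within 1 kb had a median log2 difference of -0.15, and 16.7% of them were called lower and 2.82% higher by limma. Between 1 and 5 kb 10.6% were lower and 10.5% higher, and the median was -0.03. At 5 to 10, 10 to 50 and 50 to 100 kb the medians were -0.03, -0.03 and 0.01. In these bins 11.5%, 9.85% and 7.74% were lower and 8.35%, 9.41% and 10.5% higher. At 100 kb or more (18444 sites) 6.67% were lower, 13.5% were higher and the median was 0.03. Relative to those distant sites, the mean log2 level of the 3635 sites within 5 kb was higher by 0.04 and 0.09 in Hdac3-deleted replicates 1 and 2, and by 0.29 and 0.23 in wild-type replicates 1 and 2. The genotypes did not overlap in this value, 0.06 ± 0.04 in Hdac3-deleted cells against 0.26 ± 0.04 in wild type (SD, n = 2 each), but the same libraries chose the wild-type-only sites. An exact two-sided permutation test gave p = 0.333, the smallest that 2 against 2 libraries allow, so the test cannot decide. The 5 kb value pools unlike bins. Mean log2 levels within 1 kb were 8.19 and 8.21 in Hdac3-deleted replicates 1 and 2 against 8.40 and 8.36 in wild-type replicates 1 and 2. At 1 to 5 kb they were 7.93 and 7.94 against 7.94 and 7.92, and at the distant sites 8.01 and 7.98 against 7.86 and 7.89. Sites within 1 kb also had more reads than the distant ones, with medians of 263 in Hdac3-deleted cells and 316 in wild type, against 215 in Hdac3-deleted cells and 193 in wild type at the distant sites.

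**Figure D5:**
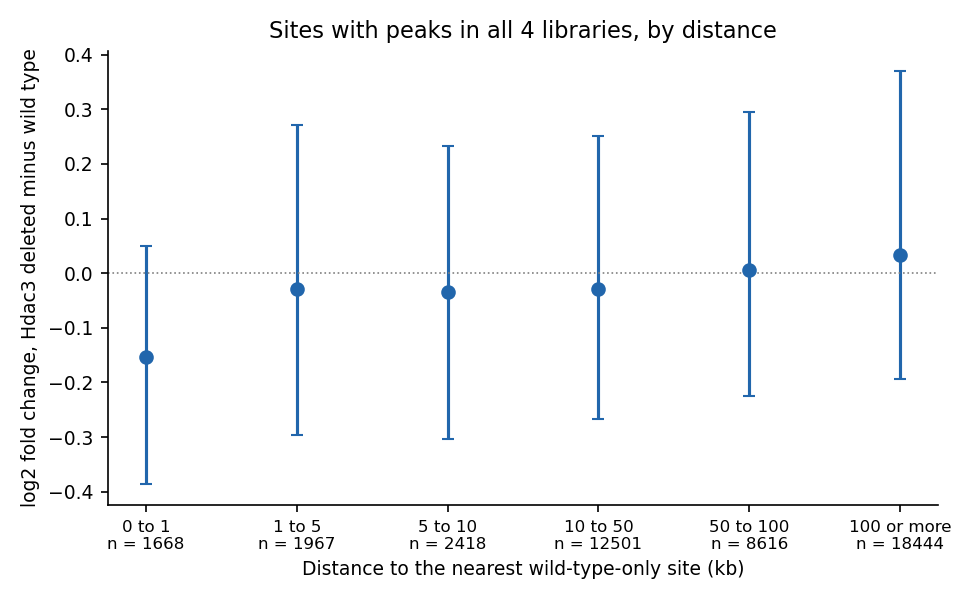
Log2 fold change (Hdac3 deleted minus wild type, on log2(normalized reads + 1)) of sites with peaks in all 4 libraries, by distance to the nearest wild-type-only site; points are medians and bars span the quartiles over sites. The median is -0.15 within 1 kb and 0.03 at 100 kb or more, and the quartile ranges of all distances overlap.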

How the data were processed

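The members and all lists, cuts and windows were chosen with earlier results of these data known. The submitters' processing notes name edgeR, DiffBind 1.10.2, MACS2 2.0.10, SAMtools and Bowtie2 2.2.4 and the builds mm10 and dm3, without their roles. MACS2 2.0.10.20131216 was run on each library by itself, per the file headers, without a control, at q 0.001, with tags extended to 140 bp and 1 tag kept per position. Per the file headers, the pileup is an unscaled signal, the fold enrichment a ratio to the local background of the same library, and the peak score a −log10 q-value; these are the authors' values per peak. The deposited site table holds a normalized read signal per library, log2 means and folds, and the p-value and FDR of the authors' own comparison. The names of the peak lists linked its 4 library columns to samples. Each value was a whole multiple (100% of values, tolerance 0.001 reads) of 0.999, 1.33, 0.664 and 1.13 in Hdac3-deleted replicates 1 and 2 and wild-type replicates 1 and 2, steps inferred from the values, which gave reads per site, 21177343, 16132402, 32988999 and 19017456 in all.

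The log2 difference and the test were from limma 3.58.1 (R 4.3.3) with a mean-variance trend on log2(normalized reads + 1), a scale that understates the change of low sites, over all 69709 sites and the 4 libraries without covariates and without a filter; it was tested on simulated data, as were edgeR 4.0.16 and the overlap step. DESeq2 1.42.0 and edgeR on the recovered reads were alternatives; edgeR called 14618 sites. Intervals cover counting error only, since reads carry no molecular identifiers. Named sites were the 10 largest differences, the 5 highest levels, the 5 sharpest summits, the 3 runs with the most members and the 3 sites on each side of the threshold; windows, width and enrichment groups and distances were chosen after seeing the data. Planned gene lists, promoter shares and motif shares were not analysed here, because no mouse annotation or genome was used; the peak lists held 0 Drosophila features, so the S2 cells gave no scaling and a shift of all sites together could not be seen.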

Additional observations from a re-analysis of the deposited data

How the results depend on the processing

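The number of wild-type-only sites stayed within 1.5 times of 6165 under the alternative overlaps, peak cutoffs, list lengths and distances (4280 to 7211). Leaving out a library gave 6165 to 10682, the highest without Hdac3-deleted replicate 2; without either wild-type library it cannot change, because every site in the table has peaks in at least 2 libraries. The median width ran from 224 to 238 bp and the share of members within 10 kb of another from 16.7% to 25.7% with a library left out; the share was 44.9% at 50 kb. The number of wild-type-only sites at 69 to 70 Mb of chromosome 6 was 22 to 23 with a library left out and 19 to 22 under the other rules. The count of wild-type-only sites called lower ran from 530 (without wild-type replicate 1; 953 without replicate 2) to 1554 with a library left out and from 1149 (DESeq2 Wald test) to 1759 (pseudocount 10) in the other planned fits. The calls over all sites, 14335, ran from 6595 (without wild-type replicate 1; 8506 without Hdac3-deleted replicate 1) to 14683 with a library left out and were 8742 with each library's reads scaled to its filtered tags. Of these 8742, 2958 were lower, 1543 of them wild-type-only, and 5784 higher, where the reported fit had 6202 lower and 8133 higher; without wild-type replicate 1, 2261 were lower and 4334 higher. The median log2 difference of the class was -0.60 with pseudocount 10 and between -0.65 and -0.78 with a library left out; the causes were not tested. The difference between genotypes in sites near against far from members, -0.20, ran from -0.17 to -0.23 with a library left out. With the replicate number as a block, 1644 wild-type-only sites and 14217 sites in all were called; deviations of same-numbered libraries had a correlation of -0.10 over sites, and the crossed pairing, chosen after seeing the data, gave 2185 and 19405. For the 23 named sites 304 of 320 alternative values moved by no more than the spread between replicates and 0 changed sign where called. Many of these values could not have moved further. With 2 libraries per group, leaving 1 out cannot shift a value beyond that spread, and both block fits leave it unchanged. The count is therefore not a measure of stability. Depth limits the sites with few reads, where the median of 28 reads in Hdac3-deleted replicate 2 allows only large differences to be seen. Promoter and motif shares were not run.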
